A study of Homo sapiens with 18 samples.

Results

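KC7F2 is a small molecule that the submitters describe as a HIF1A inhibitor, and its effect on RNA was followed here in LNCaP cells, an androgen-sensitive line derived from human prostate cancer. The KC7F2 group was 3 libraries from cells infected for 5 days with pGIPZ, the lentivirus that served as the shRNA control, and given 40 µM KC7F2 for the last 24 h. The control group was 3 libraries from pGIPZ cells without KC7F2. Every library, controls included, also received 100 µM CoCl2 for 24 h, so the comparison asks what KC7F2 does to cells already in a chemical imitation of hypoxia. No group without CoCl2 is used here. These 6 libraries are part of a series of 18, in 6 groups of 3. The other groups used here are KC7F2 in cells with an shRNA against FOXA1 (shFOXA1), shFOXA1 alone, and an shRNA against HIF1A (shHIF1A). All were in the same line, infected for 5 days, with the same CoCl2. KC7F2 was again given at 40 µM for 24 h. The analysis covers the 12900 of 26443 genes that had at least 1 RPKM (read count scaled to gene length and to library size) in at least 3 of the 18 libraries.

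As background, HIF1A is the oxygen-regulated subunit of hypoxia-inducible factor, which switches on genes of glycolysis, angiogenesis and pH control when its prolyl hydroxylases stop marking it for degradation. Cobalt stabilises it at normal oxygen. KC7F2 is known as a compound that lowers the amount of HIF1A protein, so the RNA of HIF1A and the RNAs of its target genes are separate readouts. Neither HIF1A protein nor its DNA binding was measured in the values used here.

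KC7F2 changed a small share of the transcriptome. Of 12900 genes, 135 rose (1.05%) and 128 fell (0.992%) at an adjusted p below 0.05 in limma (moderated linear models on log2(RPKM + 0.5), Benjamini-Hochberg adjustment over all genes). A change of at least 2-fold was reached by 18 of the genes that rose and 19 of those that fell, and 1537 genes had an unadjusted p below 0.05. The 3 KC7F2 libraries did not overlap the 3 control libraries in 262 of the 263 genes called (all but LAMC1), against 14.6% of all genes tested. The calls rest on these same libraries, so this separation is no independent support for them. The genes that rose were led by the lysosomal and melanosomal glycoprotein GPNMB, by lipid synthesis genes and by genes of the NRF2 antioxidant programme. The 12 largest falls included 5 androgen-responsive genes. The median log2 fold change of all genes was 0.07. When the libraries were rescaled by the median of ratios, 101 genes rose and 194 fell, so the balance of rises and falls depends on the scaling. When the model was fitted to the 6 libraries alone, 9 genes rose and 12 fell. That fit has fewer degrees of freedom and takes the spread from these libraries only. The cause of the lower counts was not tested.

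Depth, recovered from the steps of the low values, was 9780000 to 12100000 reads in the KC7F2 libraries and 10400000 to 11800000 reads in the controls. The libraries differed in how much signal short genes carried. On the log2 scale, short genes minus long genes came to 0.44, 0.03 and 0.34 in KC7F2 libraries 1 to 3 and to 0.47, 0.05 and -0.14 in control libraries 1 to 3, against -0.19 to 0.13 in the other 12 libraries. KC7F2 libraries 1 and 3 and control library 1, the highest 3 of the 18, are called short-gene-rich from here on. Without them, which leaves 1 KC7F2 library against 2 controls, 34 genes rose and 33 fell. That lone library is assumed to vary like the other groups. With the length trend as a covariate instead, 224 genes rose and 205 fell. All 10 luminal prostate markers were above 1 RPKM in each of the 6 libraries, with a summed level of 1520 to 1636 RPKM in KC7F2 cells and 1765 to 2209 RPKM in controls. Basal, fibroblast, leukocyte, endothelial and neuroendocrine markers summed to at most 8.42 RPKM in any library. In bulk RNA, fewer cells of a type and less RNA per cell cannot be told apart.

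**Figure D1:**
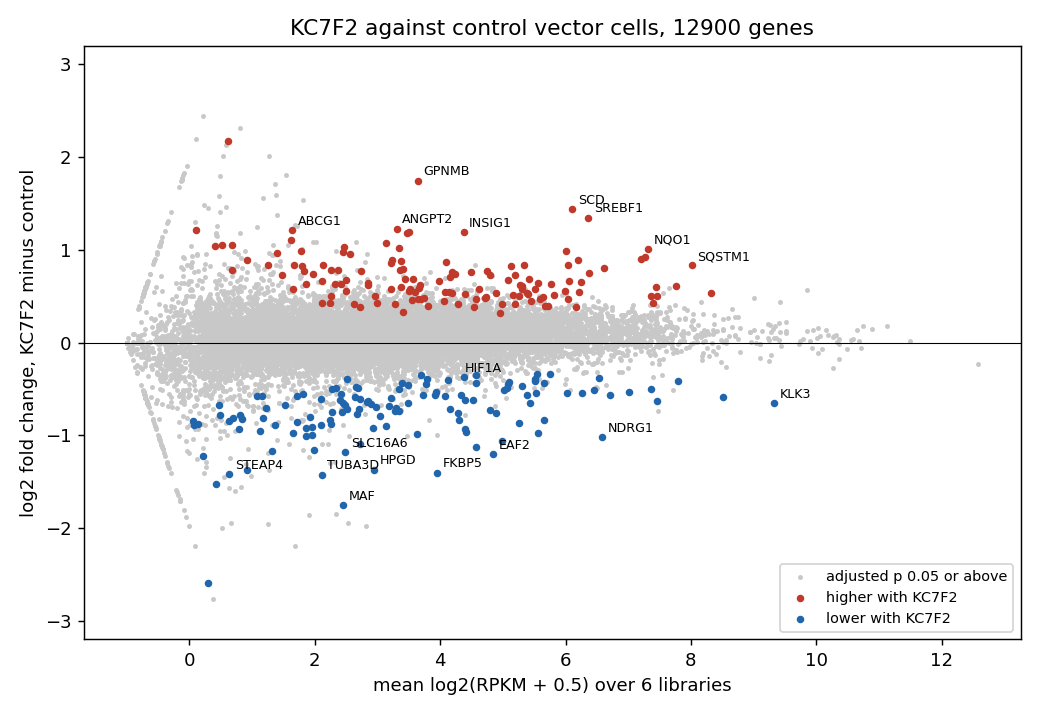
Log2 fold change of KC7F2 minus control (vertical axis) against the mean log2(RPKM + 0.5) of the 6 libraries (horizontal axis) for 12900 genes. Red points are the 135 genes that rose, blue points the 128 that fell, and the rest is grey.

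HIF1A RNA was the first check of the named target. It stood at 15.1, 23.2 and 13.5 RPKM in KC7F2 libraries 1 to 3, against 14.0, 27.3 and 28.0 RPKM in control libraries 1 to 3. The groups overlapped, and the difference did not pass the test (log2 fold change -0.38 ± 0.23, SE, adjusted p 0.559). The low values, in KC7F2 libraries 1 and 3 and control library 1, were those of the short-gene-rich libraries. With the length trend as a covariate in limma, the log2 fold change was -0.16 ± 0.13 (adjusted p 0.654). In shHIF1A cells, by contrast, HIF1A RNA was 3.06, 4.28 and 3.33 RPKM (-2.49 against the same controls, adjusted p 4.97e-07). Tested directly, HIF1A RNA was higher in KC7F2 cells than in shHIF1A cells by 2.11 log2 units (adjusted p 2.73e-06). The related subunit EPAS1 was near the floor of the assay, at 0.721, 1.18 and 0.359 RPKM with KC7F2 and 0.750, 1.04 and 0.957 RPKM in controls (adjusted p 0.700). FOXA1, the pioneer factor that the rest of the series depletes, had 97.6, 125 and 86.1 RPKM with KC7F2 and 71.6, 114 and 107 RPKM in controls (adjusted p 0.859). None of the 15 tested members of the list of HIF subunits and regulators was called.

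The NRF2 targets were the list with the most rises. NRF2 (NFE2L2) is a transcription factor held in the cytoplasm and degraded by KEAP1 until electrophiles or oxidants modify KEAP1. Freed NRF2 then turns on glutathione synthesis, thioredoxin recycling, NADPH production and detoxification through antioxidant response elements. Of 34 tested members, 20 rose with KC7F2 and 0 fell, and the median log2 fold change was 0.61 over the list, against 0.07 over all genes. The shares over all genes tested were 1.05% rising and 0.992% falling. Without the 3 short-gene-rich libraries, 9 rose and 0 fell, and in the fit to 6 libraries alone 1 rose.

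NQO1, the quinone reductase often used as the NRF2 indicator gene, had 239, 203 and 238 RPKM in KC7F2 cells and 137, 108 and 94.8 RPKM in controls, a 2.02-fold difference on the log2(RPKM + 0.5) scale (log2 1.01 ± 0.12, adjusted p 0.000148). OSGIN1, an oxidative-stress-induced growth inhibitor, had 17.4, 17.5 and 15.3 RPKM with KC7F2 and 8.39, 6.45 and 6.35 RPKM in controls, with a log2 change of 1.20 ± 0.13 (adjusted p 5.49e-05). Both genes were separated between the groups in every library. The aldo-keto reductase AKR1C2 ran at 3.60, 2.60 and 3.38 RPKM with KC7F2 and 1.74, 1.29 and 1.17 RPKM in controls (adjusted p 0.00183). AKR1C1, AKR1C2 and AKR1C3 are near-identical in sequence and reads may have been shared among them. AKR1C1 itself had 9.66, 7.24 and 9.28 RPKM with KC7F2 and 4.98, 3.88 and 2.88 RPKM in controls and did not pass (adjusted p 0.0512).

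PGD, an NADPH-producing enzyme of the pentose phosphate pathway, had 134, 132 and 122 RPKM with KC7F2 and 74.2, 79.4 and 67.3 RPKM in controls (adjusted p 0.000224). Malic enzyme ME1 also rose, by 0.83 ± 0.11 log2 units (adjusted p 0.000421). The cystine importer SLC7A11 had 42.6, 48.1 and 48.4 RPKM with KC7F2 and 23.8, 24.0 and 30.7 RPKM in controls (log2 0.82 ± 0.11, adjusted p 0.000366). The heavy chain of that importer, SLC3A2, from the amino acid list, had 229, 189 and 221 RPKM with KC7F2 and 131, 113 and 93.3 RPKM in controls (adjusted p 0.000421). GCLM, the regulatory subunit of the glutathione-making ligase, rose by 0.66 ± 0.10 log2 units (adjusted p 0.00162), while its catalytic partner GCLC, at 0.30 ± 0.09, did not pass (adjusted p 0.156).

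TXNRD1, which reduces thioredoxin, rose by 0.61 ± 0.09 log2 units to 254, 284 and 272 RPKM, against 165, 185 and 178 RPKM in controls (adjusted p 0.000618). Sulfiredoxin SRXN1, which repairs peroxiredoxins, rose by 0.66 ± 0.09 (adjusted p 0.000590). SQSTM1, the autophagy receptor p62 that binds KEAP1, had 364, 332 and 337 RPKM with KC7F2 and 221, 202 and 161 RPKM in controls (log2 0.83 ± 0.12, adjusted p 0.000562). NFE2L2 RNA stood at 20.9, 20.6 and 20.8 RPKM with KC7F2 and 20.5, 20.8 and 20.4 RPKM in controls, a log2 difference of 0.01 ± 0.09 (adjusted p 0.968). HMOX1, the heme-degrading enzyme that is also induced by cobalt, was 23.3, 22.1 and 18.2 RPKM with KC7F2 and 18.4, 19.8 and 17.6 RPKM in controls (adjusted p 0.683). The ferritin light chain FTL rose by 0.54 ± 0.13 (adjusted p 0.0399), but lost its call when control library 2, control library 3, KC7F2 library 1 or KC7F2 library 3 was left out (adjusted p up to 0.197).

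Promoter sequences of the NRF2 group were read from RefSeq (GRCh38.p14), in windows that run 250 bases before to 50 bases after the annotated start, on both strands. Of the 20 NRF2 targets that rose, 16 had a promoter in that set. The antioxidant response element core, searched as TGACNNNGC where N is any base, was present in 5 of the 16 and in 13.6% of all 27305 promoters. The stretches around these 5 matches are shown because they hold the motif in members that rose together. Each runs 5′ to 3′ along the gene's strand, ends before the start site, and has the match in capitals (its reverse complement where the match lies on the other strand).
GCLM (chr1:93909431-93909504, minus strand): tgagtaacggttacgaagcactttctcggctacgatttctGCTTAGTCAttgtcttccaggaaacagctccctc
TXNRD1 (chr12:104215640-104215728, plus strand): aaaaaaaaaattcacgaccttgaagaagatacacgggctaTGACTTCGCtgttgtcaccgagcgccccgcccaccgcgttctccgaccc
PGD (chr1:10398823-10398911, plus strand): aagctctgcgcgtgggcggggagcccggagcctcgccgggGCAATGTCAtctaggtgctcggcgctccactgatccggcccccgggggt
ME1 (chr6:83431140-83431228, minus strand): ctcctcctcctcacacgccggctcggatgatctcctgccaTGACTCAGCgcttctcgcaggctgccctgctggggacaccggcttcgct
CBR1 (chr21:36069825-36069913, plus strand): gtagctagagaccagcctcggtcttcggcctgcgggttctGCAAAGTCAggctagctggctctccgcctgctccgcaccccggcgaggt
The matches begin 34 bases before the annotated start in GCLM, 99 in TXNRD1, 201 in PGD, 137 in ME1 and 159 in CBR1. Over all genes that rose, 19 of 98 with a promoter held the motif (19.4%), as did 13 of 89 that fell (14.6%). A match is a run of letters and does not show binding.

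Some genes of sterol and fatty acid synthesis also rose. SREBF1 and SREBF2 encode the membrane-bound factors that, once cut free, switch on lipid synthesis and uptake genes, and INSIG1 holds them back in the endoplasmic reticulum when sterols are plentiful. Of 24 tested members of the cholesterol list, 7 rose and 0 fell (median log2 fold change 0.38). Without the 3 short-gene-rich libraries, 4 rose and 0 fell, and without single libraries the count of rises was 4 (KC7F2 library 1 left out) to 11 (control library 1 left out). Of 16 tested fatty acid genes, 5 rose and 2 fell (median 0.23). The shares over all genes tested were 1.05% rising and 0.992% falling (median 0.07).

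SREBF1 was at 144, 126 and 124 RPKM in KC7F2 cells and 54.1, 55.2 and 44.9 RPKM in controls (log2 1.35 ± 0.12, adjusted p 1.28e-05). SCD, the desaturase that makes monounsaturated fatty acids, had 104, 131 and 107 RPKM with KC7F2 and 33.3, 43.6 and 49.3 RPKM in controls, a 2.71-fold rise (log2 1.44 ± 0.13, adjusted p 1.65e-05). For both genes the lowest KC7F2 library was more than 2 times the highest control library. INSIG1 rose by 1.19 ± 0.12 log2 units, to 33.5, 28.9 and 30.4 RPKM, against 13.6, 12.4 and 13.8 RPKM in controls (adjusted p 2.93e-05). SREBF2 rose by 0.62 ± 0.11 (adjusted p 0.00559) and lanosterol synthase LSS by 0.78 ± 0.12 (adjusted p 0.00157). STARD4, TM7SF2 and FDPS of the same list rose by 0.50 to 0.78 log2 units.

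HMGCS1, an early enzyme of cholesterol synthesis, had 16.6, 15.1 and 16.2 RPKM with KC7F2 and 17.3, 15.4 and 15.6 RPKM in controls (adjusted p 0.972). Fatty acid synthase FASN was 233, 300.3 and 216 RPKM with KC7F2 and 138, 202 and 158 RPKM in controls (adjusted p 0.0759). The elongase ELOVL6 and the desaturase FADS2 rose, by 0.77 ± 0.13 and 0.84 ± 0.13 log2 units (adjusted p 0.00377 and 0.00209). CPT1A, which admits fatty acids to mitochondria for oxidation, went the other way, at 37.0, 38.3 and 37.1 RPKM with KC7F2 and 71.3, 69.2 and 61.2 RPKM in controls (log2 -0.83 ± 0.08, adjusted p 2.48e-05). The sterol exporter ABCG1 rose as well, with 4.50, 4.49 and 3.75 RPKM in KC7F2 cells and 1.27, 1.53 and 1.88 RPKM in controls (log2 1.21 ± 0.19, adjusted p 0.00148).

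A sterol response element, searched as TCACCCCAC, was present in 1 of the 6 rising cholesterol genes with a promoter, in 0 of the 7 called fatty acid genes and in 0.425% of all promoters. Over all genes called it was in 3 of 98 that rose and 0 of 89 that fell. This motif was added after the values had been seen. The gene was SREBF2, and its stretch is shown with the match, 133 bases before the start, in capitals.
SREBF2 (chr22:41832932-41833020, plus strand): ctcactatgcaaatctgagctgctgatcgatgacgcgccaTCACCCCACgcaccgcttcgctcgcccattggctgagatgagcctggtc

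**Figure D2:**
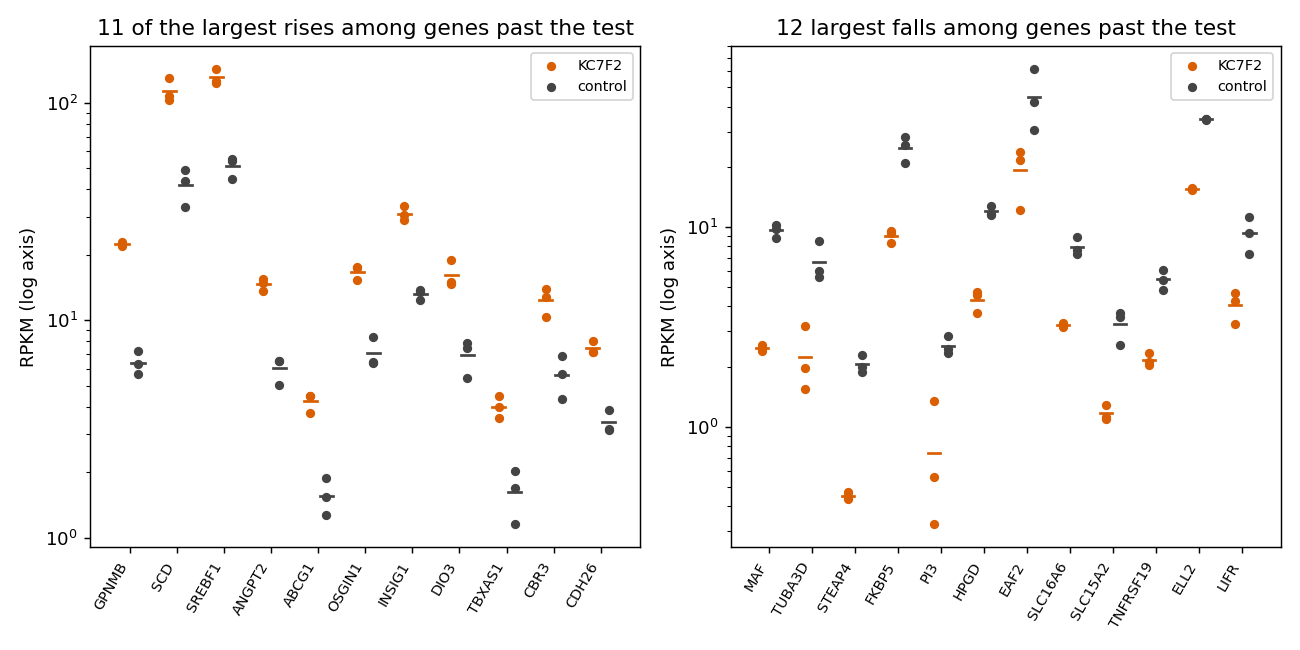
RPKM on a log axis for 11 of the 12 genes with the largest rises (left) and the 12 with the largest falls (right), KC7F2 libraries in orange to the left of control libraries in grey. Points are single libraries and bars group means. The genes were chosen to have no overlap between the 3 KC7F2 and the 3 control libraries, so their separation follows from that choice.

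GPNMB had the largest rise among the genes called, small RNAs left out, with at least 2 RPKM in a group. It stood at 22.0, 22.6 and 23.0 RPKM in KC7F2 cells and 7.19, 5.65 and 6.31 RPKM in controls (log2 1.75 ± 0.11, a 3.36-fold difference, adjusted p 1.53e-07). GPNMB lies on chromosome 7 (23236000 to 23275100, GRCh38 with GENCODE 29). It is 1 of 5 genes of the 25 tested in the autophagy and lysosome list that rose, with 0 falling (median 0.21). Over all genes tested, 1.05% rose. The 5 genes include SQSTM1, the protease gene CTSD (log2 0.43 ± 0.10, adjusted p 0.0413) and the glycosidase gene NEU1 (0.42 ± 0.10, adjusted p 0.0383). CTSD and NEU1 each lost their call in at least 4 of the 6 fits that left out 1 library, and the list's count of rises was 2 under quantile normalisation and 2 without control library 2, control library 3, KC7F2 library 1 or KC7F2 library 3, and 3 without KC7F2 library 2. MAP1LC3B, the autophagosome marker, had 21.8, 16.4 and 18.3 RPKM with KC7F2 and 18.9, 15.0 and 14.8 RPKM in controls (adjusted p 0.615), and the lysosomal regulator TFEB had 7.77, 6.64 and 7.73 RPKM with KC7F2 and 11.1, 8.52 and 6.31 RPKM in controls (adjusted p 0.700).

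The other leading rises were of several kinds. DIO3, which inactivates thyroid hormone, had 18.9, 14.7 and 15.1 RPKM with KC7F2 and 7.87, 7.47 and 5.44 RPKM in controls (log2 1.18 ± 0.27, adjusted p 0.0318). An antisense transcript overlaps the DIO3 locus and strand was not stated, so the source of these reads is uncertain. DIO3 lost its call in 5 of the 6 fits without 1 library (adjusted p up to 0.164). The carbonyl reductase CBR3 rose by 1.08 ± 0.18 (adjusted p 0.00287), the cadherin gene CDH26 by 1.03 ± 0.14 (adjusted p 0.000421) and thromboxane synthase TBXAS1 by 1.10 ± 0.24 (adjusted p 0.0185). TBXAS1 lost its call in 3 of the 6 fits that left out 1 library.

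Most of the androgen-responsive genes tested fell. In LNCaP cells androgens, with FOXA1 as a chromatin factor, drive secretory and lipid genes such as the kallikreins. Of 26 tested genes, 0 rose and 16 fell, with a median log2 fold change of -0.50. Over all genes tested, 1.05% rose and 0.992% fell, with a median of 0.07. Without the 3 short-gene-rich libraries 7 fell, and in the fit to 6 libraries alone 5 fell.

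MAF, a transcription factor gene, fell the most among the genes called, small RNAs left out, with at least 2 RPKM in a group. It had 2.38, 2.58 and 2.50 RPKM in KC7F2 cells and 10.3, 9.79 and 8.75 RPKM in controls, which leaves 29.6% on the log2(RPKM + 0.5) scale (log2 -1.76 ± 0.09, adjusted p 9.44e-09). FKBP5, the immunophilin that modulates steroid receptors, had 8.30, 9.52 and 9.35 RPKM with KC7F2 and 20.9, 28.2 and 25.6 RPKM in controls (log2 -1.40 ± 0.10, adjusted p 8.22e-07). ELL2, a transcription elongation factor, was tightly replicated, with 15.6, 15.3 and 15.6 RPKM with KC7F2 and 34.5, 34.7 and 34.4 RPKM in controls (log2 -1.13 ± 0.07, adjusted p 1.23e-07). In all 3 genes each KC7F2 library lay well below the lowest control library.

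Among the kallikreins, KLK3 and KLK2 fell and KLK4 did not pass the test. KLK3, which encodes prostate-specific antigen, had 549.9, 464 and 525 RPKM with KC7F2 and 958, 769.9 and 711 RPKM in controls (log2 -0.66 ± 0.13, adjusted p 0.0125). Without KC7F2 library 2 its adjusted p was 0.0600. KLK2 fell by 0.86 ± 0.12 log2 units (adjusted p 0.000421), whereas KLK4 was at 98.4, 111 and 85.1 RPKM with KC7F2 and 79.0, 119 and 108 RPKM in controls (adjusted p 0.919). TMPRSS2, the membrane protease, had 197, 197 and 185 RPKM with KC7F2 and 264, 265 and 241 RPKM in controls (log2 -0.41 ± 0.09, adjusted p 0.0201). The cold-activated channel TRPM8 fell by 0.76 ± 0.10 (adjusted p 0.000421). CAMKK2, a kinase gene of the list, had 11.0, 13.0 and 11.3 RPKM with KC7F2 and 11.5, 13.0 and 11.8 RPKM in controls (adjusted p 0.912).

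The other leading falls were of several kinds. HPGD and STEAP4 belong to the androgen-responsive list and are already counted in its falls above. HPGD, which inactivates prostaglandins, had 4.56, 3.71 and 4.70 RPKM with KC7F2 and 12.8, 11.5 and 11.6 RPKM in controls (log2 -1.37 ± 0.13, adjusted p 1.82e-05). STEAP4, a metalloreductase, was low in both groups, at 0.471, 0.433 and 0.451 RPKM with KC7F2 and 2.00, 1.87 and 2.29 RPKM in controls (log2 -1.42 ± 0.14, adjusted p 2.48e-05). EAF2, a partner of ELL proteins, fell by 1.20 ± 0.26 (adjusted p 0.0214) and lost its call in 3 of the 6 fits that left out 1 library. The carriers SLC16A6 and SLC15A2 fell by 1.18 ± 0.12 and 1.16 ± 0.15 (adjusted p 3.03e-05 and 0.000366), and the receptors TNFRSF19 and LIFR by 1.16 ± 0.13 and 1.10 ± 0.16 (adjusted p 0.000134 and 0.000684). The elastase inhibitor PI3 had 1.34, 0.325 and 0.559 RPKM with KC7F2 and 2.86, 2.34 and 2.45 RPKM in controls (adjusted p 0.00147). The tubulin gene TUBA3D fell by 1.42 ± 0.21 (adjusted p 0.00110), but it has near-identical copies among which reads may have been split.

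**Figure D3:**
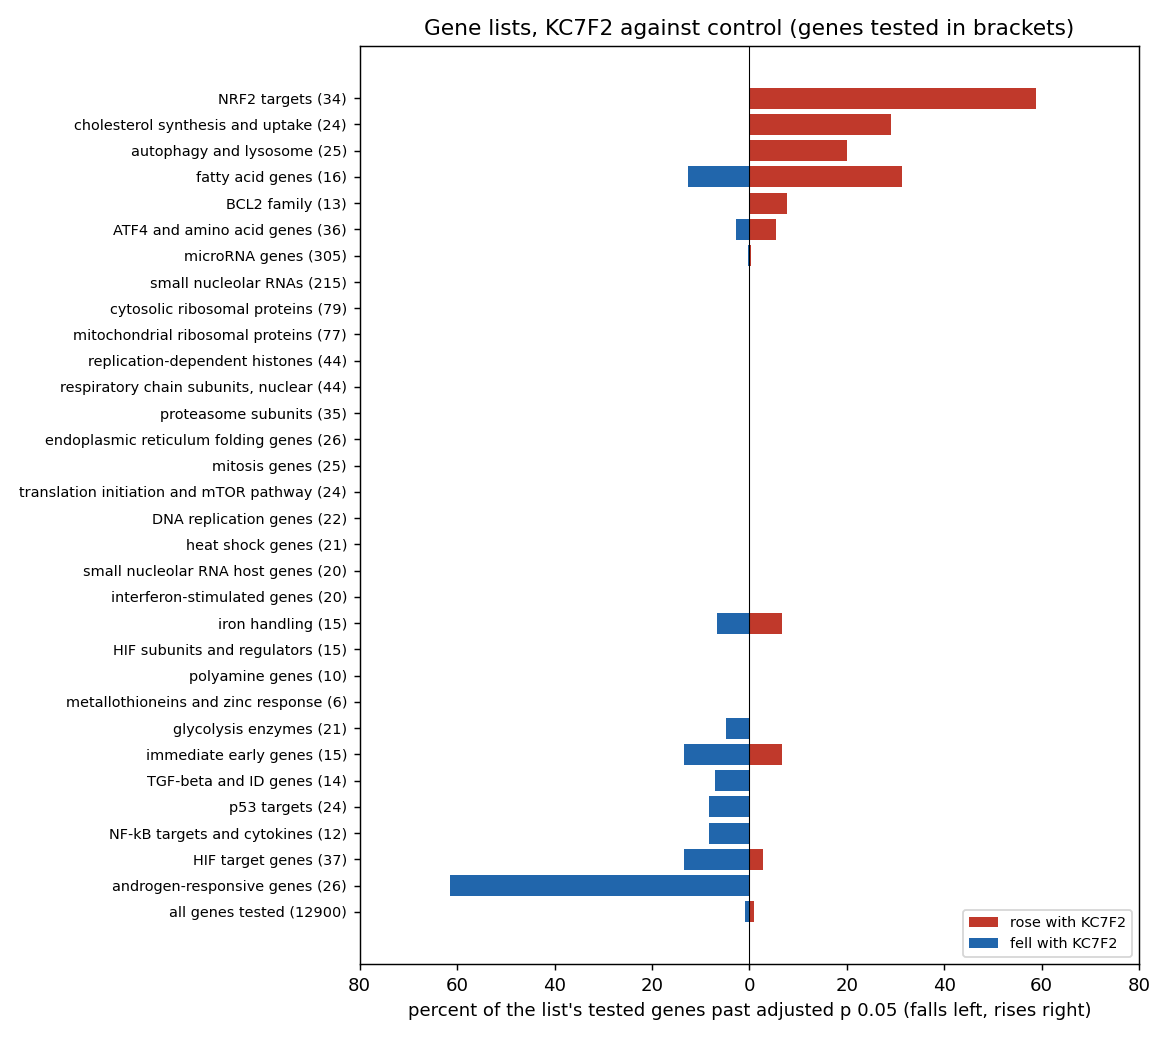
Percent of the tested genes of each list that rose (red, right) or fell (blue, left) with KC7F2, with the number tested in brackets, for 31 gene lists and for all 12900 genes tested in the bottom row. NRF2 targets reach furthest to the right and androgen-responsive genes furthest to the left.

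Of 37 HIF target genes tested, 1 rose and 5 fell with KC7F2, so that 16.2% were called, against 2.04% of all genes. The median log2 fold change of the list was -0.09, against 0.07 over all genes. The count of falls was 2 without control library 2 or KC7F2 library 2 and 3 without KC7F2 library 1. Of 21 glycolysis genes tested, 0 rose and 1 fell (median 0.12), and that was the lactate exporter SLC16A3, at 2.00, 1.74 and 2.12 RPKM with KC7F2 and 4.08, 4.24 and 3.52 RPKM in controls (log2 -0.86 ± 0.14, adjusted p 0.00296). NDRG1, a stress and hypoxia gene, had the largest fall in the HIF target list, with 69.0, 69.8 and 62.7 RPKM in KC7F2 cells and 142, 144 and 126 RPKM in controls (log2 -1.02 ± 0.10, adjusted p 1.82e-05). NDRG1 is also known as an androgen-responsive gene. PDK1, the kinase that shuts pyruvate out of mitochondria, fell by 0.44 ± 0.09 (adjusted p 0.0207). PFKFB4, a glycolytic regulator, fell by 0.49 ± 0.10 (adjusted p 0.0140) and lost its call without control library 2 or KC7F2 library 2 (adjusted p up to 0.0804). The lipoprotein receptor VLDLR fell by 0.62 ± 0.09 (adjusted p 0.000496), and PPFIA4, at 0.766, 0.555 and 0.494 RPKM with KC7F2 and 1.22, 1.19 and 1.36 RPKM in controls, fell with an adjusted p of 0.0447. Without the 3 short-gene-rich libraries, 1 HIF target fell and no glycolysis gene did.

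ANGPT2, an angiopoietin that loosens vessels, rose. It had 14.8, 15.5 and 13.7 RPKM in KC7F2 cells and 5.03, 6.52 and 6.48 RPKM in controls (log2 1.23 ± 0.12, adjusted p 2.48e-05), with no overlap. The best-known angiogenic target, VEGFA, had 24.7, 23.2 and 21.1 RPKM with KC7F2 and 26.6, 31.1 and 24.8 RPKM in controls (log2 -0.25 ± 0.14, adjusted p 0.513). The glucose transporter SLC2A1 had 19.9, 21.6 and 17.4 RPKM with KC7F2 and 17.8, 23.4 and 19.8 RPKM in controls (adjusted p 0.914), and BNIP3, which marks mitochondria for autophagy, had 110.5, 88.0 and 114 RPKM with KC7F2 and 128, 94.7 and 82.7 RPKM in controls (adjusted p 0.923). CA9, a carbonic anhydrase widely used as a hypoxia marker, was under 1 RPKM in all 6 libraries, at 0.0532, 0.116 and 0.199 RPKM with KC7F2 and 0.0566, 0.111 and 0.250 RPKM in controls, and was not tested. The hypoxia response core ACGTG was present in 1 of the 4 called HIF targets with a promoter, PPFIA4, and in 21.6% of all promoters.

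Depleting HIF1A with an shRNA and adding KC7F2 gave different profiles. The shRNA cells had been infected for 5 days and KC7F2 was given for 24 h, so the 2 treatments also differ in length. The 2 contrasts share their 3 control libraries, so they were compared through the direct test of KC7F2 cells against shHIF1A cells. In that test 2529 genes were higher (19.6%) and 2972 lower (23.0%) in KC7F2 cells, of 12900. KC7F2 cells differed from the controls in 263 genes (2.04%), and shHIF1A cells from the same controls in 5422 (42.0%). Among the 37 HIF targets, 13 were higher and 8 lower with KC7F2 than with shHIF1A, and among the 21 glycolysis genes 11 were higher and 2 lower. Among the 34 NRF2 targets, 27 were higher and 2 lower. The 26 androgen-responsive genes were closer, with 7 higher and 9 lower and a median log2 difference of -0.09. Against the controls, 16 of them fell with KC7F2 and 16 with shHIF1A, while 0 and 3 rose. With shHIF1A, 16.1% of all genes fell. Without the 3 short-gene-rich libraries, KC7F2 and shHIF1A cells differed in 3102 genes.

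Single genes named for the smallest adjusted p in that direct test show its extremes and not its typical size. ANGPT2 had 14.8, 15.5 and 13.7 RPKM with KC7F2 and 0.347, 0.382 and 0.448 RPKM with shHIF1A, a log2 difference of 4.09 ± 0.12 (adjusted p 1.49e-12). GPNMB had 22.0, 22.6 and 23.0 RPKM with KC7F2 and 1.11, 1.49 and 1.54 RPKM with shHIF1A (log2 difference 3.62 ± 0.11, adjusted p 1.83e-12). The controls lay between the KC7F2 and shHIF1A libraries for both. BIRC3, an inhibitor of apoptosis, had 3.75, 3.75 and 3.81 RPKM with KC7F2 and 24.2, 25.7 and 27.0 RPKM with shHIF1A (adjusted p 1.32e-11), and the Notch ligand JAG1 had 4.04, 5.33 and 5.32 RPKM with KC7F2 and 30.9, 32.3 and 34.4 RPKM with shHIF1A (adjusted p 8.52e-11). CDC42EP3, an effector of the GTPase CDC42, differed by -2.11 log2 units (adjusted p 8.35e-11), and RASSF3, of the Ras-association family, by 2.00 (adjusted p 8.52e-11). MAF, in contrast, was 2.38, 2.58 and 2.50 RPKM with KC7F2 and 2.23, 2.39 and 2.58 RPKM with shHIF1A (log2 difference 0.04 ± 0.09, adjusted p 0.729).

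**Figure D4:**
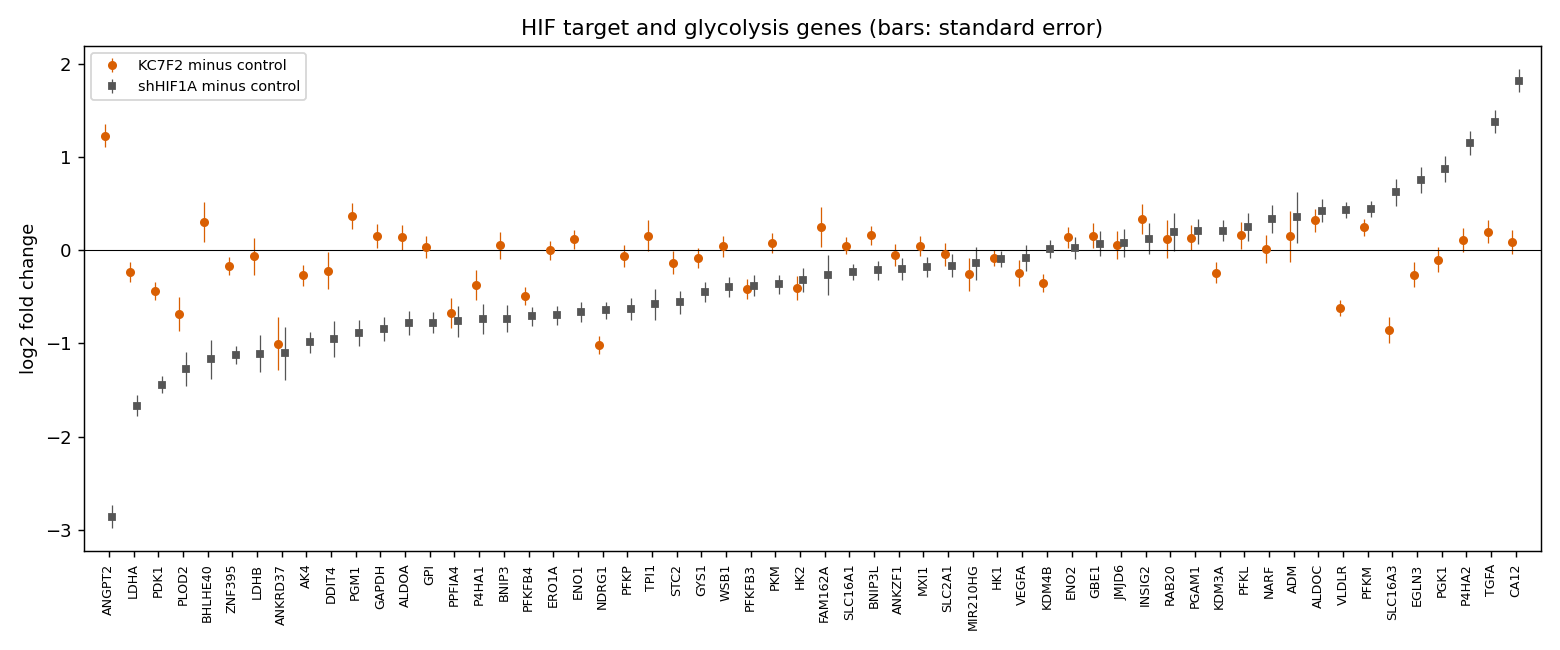
Log2 fold change against the shared control libraries for 58 HIF target and glycolysis genes, KC7F2 minus control as orange circles and shHIF1A minus control as grey squares, with standard errors as bars and genes ordered by the shHIF1A value. Most circles lie near 0 along the whole row, with ANGPT2 at 1.23 and NDRG1 at -1.02.

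Other stress and growth lists had between 0 and 3 calls each, against 2.04% of all genes called. Of the 36 tested ATF4 and amino acid genes, 2 rose, SLC7A11 and SLC3A2, which together form the cystine importer, and 1 fell, VLDLR (8.33% called). Of 24 p53 targets, 0 rose and 2 fell (8.33% called): PLK2, by 0.45 ± 0.08 (adjusted p 0.00610), and BTG2, by 0.34 ± 0.09 (adjusted p 0.0470). BTG2 lost its call in 5 of the 6 fits that left out 1 library. Among 15 immediate early genes, 3 were called (20%). JUND rose by 0.66 ± 0.16 (adjusted p 0.0476), and the phosphatase gene DUSP5 and the nuclear receptor gene NR4A1 fell by 0.93 ± 0.18 and 0.50 ± 0.12 (adjusted p 0.00771 and 0.0371). JUND lost its call in 4 of those 6 fits and NR4A1 in 5.

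BIRC3 was the only member of the 12 NF-kB genes tested to be called, falling to 3.75, 3.75 and 3.81 RPKM with KC7F2, against 5.79, 5.12 and 5.57 RPKM in controls (adjusted p 0.00798). BMF, a pro-apoptotic BCL2 relative, rose by 0.41 ± 0.09 (adjusted p 0.0257), 1 of 13 tested in its family, and lost its call in 5 of the 6 fits that left out 1 library. THBS1, a matrix glycoprotein of the TGF-beta list, fell to 20.2, 26.0 and 18.9 RPKM with KC7F2, against 38.4, 50.9 and 48.0 RPKM in controls (adjusted p 0.000366), 1 of 14 tested. Of 15 iron-handling genes, FTL, also in the NRF2 list, rose and STEAP4, also in the androgen-responsive list, fell. Of 305 microRNA genes, 0.656% were called. MIR8055 rose (1.71, 3.71 and 3.19 RPKM with KC7F2 and 0, 0 and 0.999 RPKM in controls) and MIR6776 fell (0, 0 and 0 RPKM with KC7F2 and 5.97, 1.46 and 1.64 RPKM in controls). MIR6776 lost its call in all 6 fits that left out 1 library (adjusted p up to 0.144) and MIR8055 in 3 of them. Values of such short genes rest on few reads.

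No member was called among 26 endoplasmic reticulum folding genes, 21 heat shock genes, 6 metallothioneins and zinc-response genes, 25 mitosis genes or 22 DNA replication genes. The same was true of 44 nuclear respiratory chain genes, 79 cytosolic and 77 mitochondrial ribosomal protein genes, 35 proteasome subunits, 24 translation and mTOR genes, 20 interferon-stimulated genes and 10 polyamine genes. Nor was any called among 44 replication-dependent histones, 215 small nucleolar RNAs or 20 small nucleolar RNA host genes. No mitochondrially encoded subunit was among the genes with values. A gene list with no call at this depth and with 3 libraries a group is not shown to be without change.

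KC7F2 was also given to cells depleted of FOXA1, in libraries not shared with those above. In shFOXA1 cells 220 genes rose (1.71%) and 306 fell (2.37%) with KC7F2. The 2 KC7F2 contrasts called 135 genes in the same direction, which is 51.3% of those called in control vector cells and 25.7% of those called in shFOXA1 cells, and 1 gene, ACSL3, in opposite directions. The NRF2 list repeated, with 24 of 34 rising and 0 falling (median 0.69), and so did the cholesterol list, with 7 of 24 rising and 0 falling (median 0.32). Of the 26 androgen-responsive genes, 1 rose and 9 fell there (median -0.24). The 1 that rose was ACSL3, which activates fatty acids, at 33.1, 30.8 and 30.4 RPKM with KC7F2 and 24.3, 26.9 and 25.0 RPKM without in shFOXA1 cells, and at 48.2, 47.3 and 46.6 RPKM with KC7F2 and 57.3, 64.0 and 59.0 RPKM in control vector cells. The difference of its effects did not pass (log2 0.64 ± 0.12, adjusted p 0.0534).

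OSGIN1 had 21.4, 18.9 and 18.2 RPKM in shFOXA1 cells with KC7F2 and 6.76, 6.75 and 6.38 RPKM in shFOXA1 cells (log2 1.48 ± 0.13, adjusted p 3.69e-06). SLC7A11 had 44.9, 47.1 and 43.0 RPKM with KC7F2 and 15.8, 13.9 and 16.0 RPKM without (log2 1.54 ± 0.11, adjusted p 3.17e-07). The difference between its effects in the 2 backgrounds did not pass (log2 0.71 ± 0.15, adjusted p 0.0981). SREBF1 rose by 1.35 ± 0.12 in shFOXA1 cells and by 1.35 ± 0.12 in control vector cells. GPNMB had 39.7, 33.9 and 34.8 RPKM in shFOXA1 cells with KC7F2 and 7.28, 6.81 and 6.78 RPKM in shFOXA1 cells (adjusted p 7.07e-09). KLK3 was at 618, 585 and 689 RPKM with KC7F2 and 658, 647 and 581 RPKM without (adjusted p 1.00), while FKBP5 fell by 0.62 ± 0.10 (adjusted p 0.00174). The difference of the KLK3 effects was 0.66 ± 0.19 log2 units (adjusted p 0.282), and that of the FKBP5 effects 0.78 ± 0.14 (adjusted p 0.0542).

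**Figure D5:**
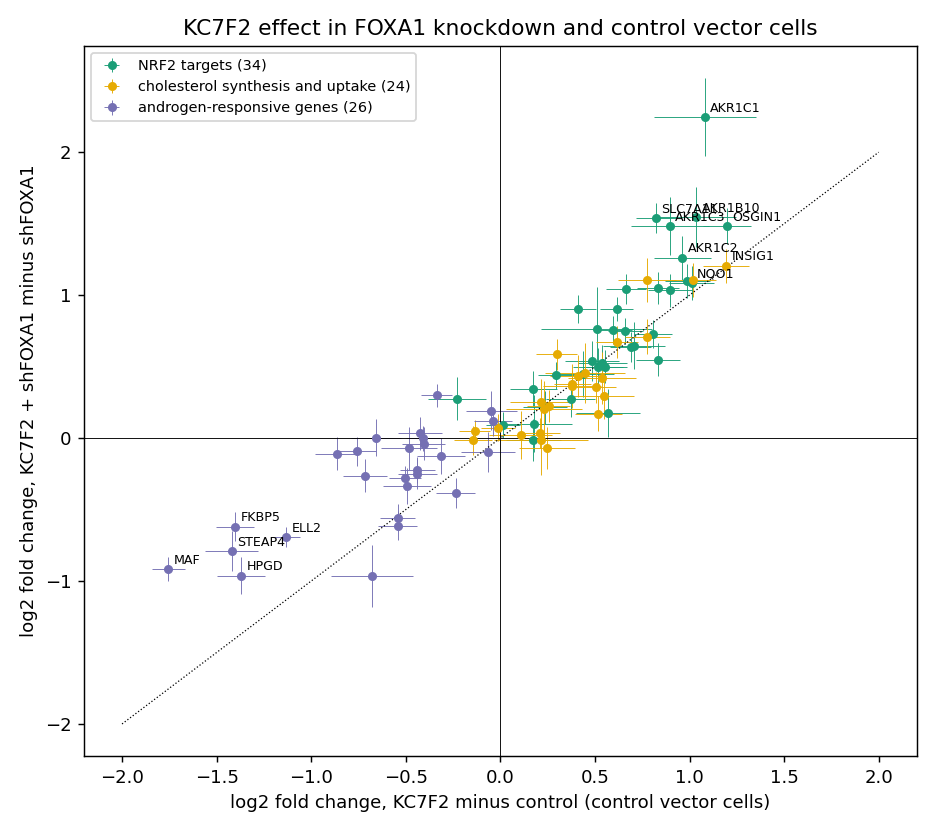
Log2 fold change of KC7F2 in shFOXA1 cells (vertical axis) against that in control vector cells (horizontal axis) for 34 NRF2 targets, 24 cholesterol genes and 26 androgen-responsive genes, with standard errors as bars and a dotted line of equal change. Most NRF2 targets and cholesterol genes lie above 0 on both axes, and MAF, FKBP5 and ELL2 lie above the line, with smaller falls in shFOXA1 cells.

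The direct test of the difference between the KC7F2 effects in the 2 backgrounds called 10 genes (0.0775%), 2 with a higher (0.0155%) and 8 with a lower (0.062%) log2 effect in shFOXA1 cells, and 872 genes had an unadjusted p below 0.05. MAF had 5.20, 5.80 and 5.31 RPKM in shFOXA1 cells with KC7F2 and 10.6, 10.7 and 10.7 RPKM in shFOXA1 cells, so that it fell less there (difference 0.84 ± 0.12, adjusted p 0.0167). The endonuclease-domain gene ENDOD1 had 46.0, 48.6 and 47.6 RPKM with KC7F2 and 43.7, 42.9 and 41.6 RPKM without in shFOXA1 cells. In control vector cells it had 69.6, 78.1 and 70.3 RPKM with KC7F2 and 95.3, 113 and 105 RPKM without (difference 0.66 ± 0.11, adjusted p 0.0450). The remaining genes named by the rule, KRT16, ENC1, NRCAM and S100A9, stood far higher in shFOXA1 cells than in control vector cells. KRT16, an epithelial stress keratin, had 3.74, 3.92 and 5.32 RPKM with KC7F2 and 39.0, 49.2 and 39.5 RPKM without in shFOXA1 cells, and 0.145, 0.0524 and 0.0601 RPKM with KC7F2 and 0.0513, 0.151 and 0 RPKM in control vector cells, a difference of effects of -3.22 ± 0.24 (adjusted p 4.92e-06). In control vector cells NRCAM had 0.0743, 0.0269 and 0.0772 RPKM with KC7F2 and 0.0527, 0.0258 and 0 RPKM without, and S100A9 had 1.00, 0.624 and 0.715 RPKM with KC7F2 and 0.915, 1.20 and 0.672 RPKM without. KRT16 and NRCAM passed the expression filter only through the shFOXA1 groups, and at such levels a fall in control vector cells was not detectable. For both genes the difference therefore gives the fall in shFOXA1 cells and no comparison with control vector cells. S100A9 was at most 1.20 RPKM in control vector cells, where fold changes are understated on the scale used. Part of its difference may therefore come from its low level there, and this was not tested. The count of 10 was 2 to 23 when single libraries were left out and 40 with the length trend as a covariate.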

How the data were processed

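RNA-seq libraries of LNCaP cells came from total RNA (NEBNext Ultra kit, per the labels' protocols). The authors deposited 1 table of RPKM values for 18 libraries. STAR and hg38 are named in the submitters' processing notes. No source used here names the counting program, annotation, strandedness or vehicle of KC7F2. The labels do not say whether replicates were separate cultures, so a p-value covers variation among these libraries, which may be technical. Of 26475 lines, 32 without values were left out. No library was left out.

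Depth is not in the table. It was recovered from the lowest values of genes of up to 200 nt, which step by what a single read is worth. With it, 80.4 to 91.2% of such values were whole within 2%, and depth was 3280000 to 12100000 reads over the 18 libraries. Counting error therefore adds to the spread of low genes, and no count test was run.

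Values were analysed as log2(RPKM + 0.5), where fold changes of low genes are understated, with limma 3.58.1 in R 4.3.3: 1 model over 6 groups, 12 residual degrees of freedom, eBayes with an intensity trend, two-sided tests, Benjamini-Hochberg adjustment over 12900 genes and a threshold of 0.05. The code was tested on simulated data. Tables and figures used Python with pandas and matplotlib. Positions came from GENCODE 29 (GRCh38). Short and long genes are the lowest and highest 25% by exon length.

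The text names the 12 largest rises and falls with a mean of at least 2 RPKM in a group, no overlap between groups and no small RNA, up to 4 genes of each list by adjusted p, preset genes (HIF1A, FOXA1, EPAS1, CA9, VEGFA and KLK3) and 6 genes for each difference test. Some genes that the rule names are not reported here. Other list members named were picked for their role with their values known. The genes, lists, markers and tests were chosen with earlier results of these data known. Alternatives were other pseudocounts, filters, scalings, fits, length corrections and left-out libraries.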

Additional observations from a re-analysis of the deposited data

Results flagged for a closer look

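For 10 genes the effect of KC7F2 in shFOXA1 cells differed from that in control vector cells by the direct test of the difference (limma, adjusted over 12900 genes), of which the 6 that the naming rule selects are given here. KRT16 differed by -3.22 log2 units (adjusted p 4.92e-06), ENC1 by -1.22 (adjusted p 7.20e-05), NRCAM by -1.37 (adjusted p 0.0374) and S100A9 by -1.62 (adjusted p 0.0450), each with a lower effect in shFOXA1 cells. MAF differed by 0.84 (adjusted p 0.0167) and ENDOD1 by 0.66 (adjusted p 0.0450), each with a higher effect there. KRT16 and NRCAM were below 0.2 RPKM in every control vector library, where no fall was detectable, so their values do not compare the effects in the 2 backgrounds. ENC1, which encodes an actin-binding protein, had 71.4, 69.7 and 68.2 RPKM with KC7F2 and 136, 139 and 146 RPKM without in shFOXA1 cells. In control vector cells ENC1 had 6.79, 7.90 and 7.38 RPKM with KC7F2 and 5.78, 6.42 and 6.48 RPKM without. S100A9, a calcium-binding alarmin, had 13.8, 15.3 and 12.7 RPKM with KC7F2 and 50.6, 53.4 and 42.6 RPKM without in shFOXA1 cells. In control vector cells S100A9 was low, and fold changes of low genes are understated on the scale used. Part of the S100A9 difference may therefore come from its low level there, so its size is uncertain. NRCAM, a neural adhesion molecule, had 2.21, 2.26 and 2.39 RPKM with KC7F2 and 7.19, 5.86 and 5.84 RPKM without in shFOXA1 cells. Groups of 3 libraries were not searched for single outlying libraries.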

How the results depend on the processing

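The direction of all 52 genes named and called was kept under every alternative run. The 6-library fit called 9 rising and 12 falling genes (6 and 10 of them shared with the calls of the report), 2 genes that differed between backgrounds, and lost 39 of the 52 named calls. Leaving out the 3 short-gene-rich libraries gave 34 rising (34 shared), 33 falling (30 shared), 2 differing between backgrounds and 3102 between KC7F2 and shHIF1A, and lost 21 of the 52. Removing the length and GC trend gave 240 rising and 29 differing between backgrounds, and the length covariate 224 rising, 205 falling and 40 differing. Median-ratio scaling gave 194 falling. Genes differing between backgrounds numbered 3 with a pseudocount of 0.1, 27 with a pseudocount of 1, 27 with no filter, 25 with quantile normalisation and 24 without small RNA and histone genes. The cause of these shifts was not tested. Fits to fewer libraries also have fewer degrees of freedom.

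With single libraries left out, the counts were 72 to 294 rising, 71 to 203 falling, 2 to 23 differing between backgrounds and 4461 to 5419 between KC7F2 and shHIF1A, and the HIF1A difference was -0.70 to -0.21 (log2). The highest counts, 294 and 203, came without control library 1. The lowest count of rises came without control library 3 (72) and the lowest of falls without control library 2 (71). Without KC7F2 library 1, 73 rose and 77 fell, and without KC7F2 library 3, 86 rose and 79 fell. Of the 52 named calls, 38 held in all 6 such fits, and 13 held in every alternative run.

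Replicate numbers are shared between groups, and the labels do not say whether they pair the samples. Same-numbered KC7F2 and control libraries deviated together with correlations of 0.25, 0.18 and -0.21 across genes. These were not set against differently numbered libraries, so they do not settle it. With the replicate block 154 rose and 133 fell, 9 genes differed between backgrounds, 5631 differed between KC7F2 and shHIF1A, and HIF1A stood at -0.38. FOXA1, which was not called, turned to -0.000811 with median-ratio scaling and -0.0176 with quantile normalisation, and was -0.12 to 0.21 with single libraries left out (-0.0592 without KC7F2 library 2). EPAS1, also not called, turned to 0.17 without the 3 short-gene-rich libraries and was -0.46 to 0.0252 with single libraries left out.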

Other observations

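Of the 263 genes called, 191 were in none of the 33 lists. Those described here were picked after their values had been seen. Further detoxification genes, and some genes of other kinds, were among the rises. PTGR1, which reduces leukotrienes and lipid aldehydes, had 217, 172 and 217 RPKM with KC7F2 and 142, 108 and 80.2 RPKM in controls (log2 0.90 ± 0.16, adjusted p 0.00499). The microsomal glutathione transferase MGST1 rose by 0.75 ± 0.18 (adjusted p 0.0370) and the small MAF gene MAFF by 0.83 ± 0.20 (adjusted p 0.0436). The androgen-conjugating enzymes UGT2B15 and UGT2B17 rose by 0.98 ± 0.15 and 0.86 ± 0.17 (adjusted p 0.00183 and 0.0108). They are near-identical, so reads may have been shared. FOLH1, which encodes prostate-specific membrane antigen, had 211, 201 and 217 RPKM with KC7F2 and 154, 151 and 138 RPKM in controls (adjusted p 0.00505).

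Lipid genes outside the lists were among the rises. MYLIP, a ubiquitin ligase known as sterol-induced, had 6.25, 5.07 and 6.15 RPKM with KC7F2 and 3.32, 2.95 and 3.22 RPKM in controls (adjusted p 0.000399). LPIN1, a phosphatidate phosphatase, had 12.8, 15.3 and 12.4 RPKM with KC7F2 and 6.95, 7.47 and 8.27 RPKM in controls (adjusted p 0.000284). Among receptors and signalling genes, IGF1R fell by 0.76 ± 0.17 (adjusted p 0.0263), the Notch target HES1 by 0.80 ± 0.17 (adjusted p 0.0154) and ERRFI1, an inhibitor of ERBB receptors, by 0.73 ± 0.10 (adjusted p 0.000416). ERBB2 rose by 0.50 ± 0.10 (adjusted p 0.0114). NDUFA4L2, which encodes a mitochondrial protein and is known as hypoxia-induced, fell by 0.96 ± 0.22 (adjusted p 0.0328).

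The motifs searched on both strands of the promoter windows were present at these shares. ACGTG was in 32.7% of 98 genes that rose, 23.6% of 89 that fell and 21.6% of all promoters. It lies within CACGTG, which was in 17.3%, 10.1% and 7.43%. CCACG, which overlaps both, was in 51.0%, 44.9% and 37.9%. TGCNCNC was in 65.3%, 52.8% and 55.2%, CATG in 46.9%, 49.4% and 55.7%, GAANNTTC in 5.10%, 8.99% and 6.87%, and TGATGNAA in 2.04%, 1.12% and 3.67%. These shares were not tested.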
